A study of Mus musculus with 6 samples.

Results

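Cytochrome c oxidase, the terminal enzyme of the respiratory chain, was followed through the nuclear genes for its subunits and for the factors that build it. Members were all rows of the gene table whose symbol is Cox followed by a number, with or without further letters or digits, together with Ndufa4, Sco1, Sco2, Surf1, Coa3, Coa5, Coa6, Pet100, Taco1, Lrpprc and Fam36a where listed. The rule found 37 of the 23441 genes of the table. Of these, 27 matched the pattern and 10 of the 11 further names were present. Fam36a is an older symbol of Cox20, which the pattern had already found. The RNA came from mouse retinae dissected at embryonic day 14.5, with 3 control and 3 conditional knockout (CKO) libraries of polyadenylated RNA. Control mice were Ronin flox/flox. CKO mice were heterozygous for a transgene of Cre joined to GFP and were Ronin flox/flox, so both genotypes carried the floxed alleles of Ronin (gene symbol Thap11, a THAP-family zinc finger transcription factor). Only the CKO mice carried the transgene, whose promoter is active in retinal progenitor cells. The strain background of both was a mixture of C57/B6, SJL/B6, 129/Sv and FVB. The labels do not say from how many mice or litters each library was made, and p-values therefore reflect library-to-library spread only, part of which may be technical.

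Cytochrome c oxidase, or complex IV, takes electrons from cytochrome c and passes them through copper and haem A centres to oxygen, while it pumps protons across the inner mitochondrial membrane. Its catalytic core is encoded by mitochondrial DNA, and a ring of small nuclear-encoded subunits surrounds it. Assembly needs haem A synthesis, copper delivery, and chaperones that hold the newly made core subunits until their partners arrive. Several small subunits have alternative isoforms that are typical of heart and skeletal muscle, of lung or of testis. The genes encoded by mitochondrial DNA were not analysed here.

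The labels were checked on the targeted gene and on marker genes. Thap11 stood at 68.3, 82.0 and 71.6 CPM (counts per 1000000 reads of the scaled library) in control libraries 1 to 3, against 11.2, 10.9 and 6.38 CPM in CKO libraries 1 to 3. The log2 fold change, CKO minus control, was -2.96 ± 0.24 (SE, edgeR quasi-likelihood test, Benjamini-Hochberg adjusted p = 0.00425). A list of 9 retinal markers, such as Pax6, Rax and Six3, summed to 3661, 3294 and 3238 CPM in the controls and to 3384, 3287 and 3445 CPM in the CKO. None of the 9 passed the test, and 5 of the estimates were below 0. Lens markers (19 genes) summed to 12.8 to 21.3 CPM in the controls but to 10930, 66.2 and 799 CPM in CKO replicates 1, 2 and 3. Markers of striated muscle (15 genes) summed to between 5.85 and 13.7 CPM in every library, and erythroid markers (7 genes) to between 3.43 and 14.9 CPM. Blood vessel markers (9 genes) summed to 286, 341 and 340 CPM in the controls and to 270, 250 and 269 CPM in the CKO, without overlap. Most of that sum was Kdr, at 247, 296 and 306 CPM in the controls and 243, 232 and 237 CPM in the CKO. Of the others, Pecam1, Flt1 and Cldn5 were also lower without overlap, while Cdh5, Tek, Tie1, Emcn and Esam overlapped. The sum therefore describes mainly Kdr. Pigment epithelium markers (9 genes) summed to 80.8, 45.9 and 39.0 CPM in the controls and to 39.9, 36.6 and 34.2 CPM in the CKO. The largest part was Trpm1, at 42.5, 26.3 and 19.8 CPM in the controls and 19.6, 18.1 and 19.5 CPM in the CKO. Trpm1, Dct and Mlana were lower without overlap, while Mitf, Tyr, Tyrp1, Pmel, Rpe65 and Slc45a2 overlapped. No tested gene of these lists passed, and their part in the results below was not tested. Libraries held between 23721052 and 28504391 reads. Correlations of log2 CPM were between 0.954 and 0.980 among controls, between 0.985 and 0.992 among CKO libraries and between 0.954 and 0.988 across genotypes.

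The comparison of the genotypes asked which of these genes differ in level when Ronin is removed from the retina. The transcript of 1 assembly factor, Coa3, fell steeply, while the other members that could be tested, subunits and assembly factors alike, did not pass. Of the 37 members, 32 had enough reads to be tested. Coa3 was lower in the CKO, 0 members were higher, and 31 did not pass (edgeR quasi-likelihood test, Benjamini-Hochberg adjustment over 14609 genes, threshold 0.05). Over all genes tested, 0.897% were called, 0.705% as lower and 0.192% as higher. A single call among 32 genes describes Coa3, and no test of the group was made. At an unadjusted p under 0.05 the count was still 1 of 32, against 6.58% of all genes. DESeq2's Wald test and limma-voom likewise called 1 member lower and 0 higher. The median log2 fold change of the tested members was 0.00653, with 16 members below 0 and 16 above, beside a median of -0.03 over all genes tested. The 31 members that were not called had estimates from -0.88 to 0.51 and adjusted p values from 0.779 to 0.9999. For 25 of them the 95% confidence interval of the difference lay inside a 2-fold change in either direction. It reached beyond 2-fold for Cox7c, Cox7a2l and Cox4i2 on the lower side and for Cox18, Cox7a1 and Cox8a on the higher side. The RNA was from whole retina, so that fewer cells of a type and less RNA per cell cannot be told apart.

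**Figure D1:**
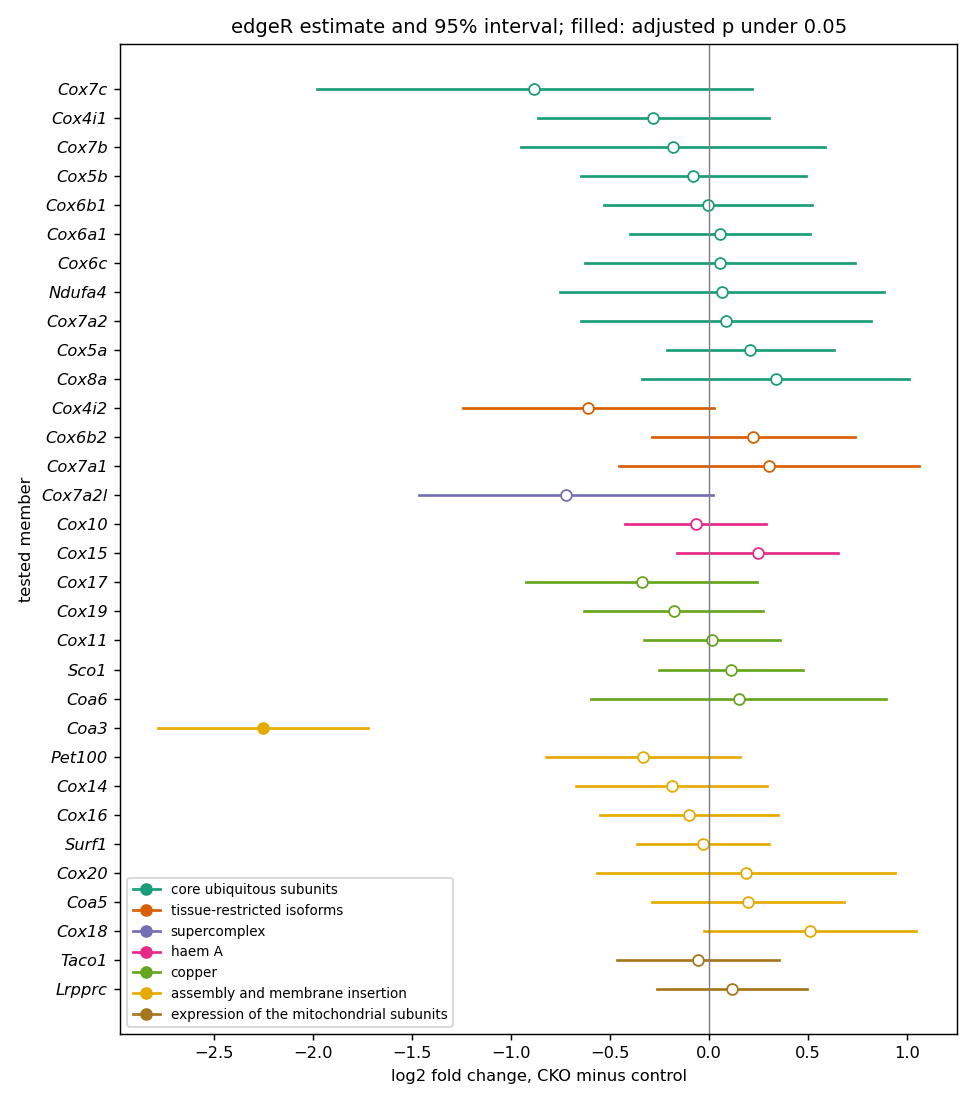
Estimated log2 fold change (x axis, CKO minus control) of the 32 tested members (y axis), grouped by role, with 95% confidence intervals from the edgeR fit; filled points have an adjusted p under 0.05. Coa3, at -2.25, stands apart at the left, and the other 31 intervals include 0.

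Coa3 encodes a small protein of the inner mitochondrial membrane that binds the newly made catalytic subunit COX1 and holds it for assembly. Its reads numbered 1421, 1131 and 906 in the 3 control libraries, and 332, 259 and 199 were counted in the 3 CKO libraries. These correspond to 55.8, 49.3 and 34.5 CPM in the controls and 11.5, 9.67 and 8.14 CPM in the CKO. Each CKO library lay below each control, and the highest CKO level was below the lowest control level of 34.5 CPM. The mean went from 46.5 ± 10.9 to 9.77 ± 1.68 CPM (SD, n = 3 per group), a 4.76-fold decrease. The log2 fold change was -2.25 ± 0.23 (SE, edgeR adjusted p = 0.00722), with a 95% confidence interval from -2.78 to -1.72. Without CKO replicate 3 the estimate was -2.14 and the adjusted p was 0.0595, so the call was lost. In the remaining alternatives the adjusted p stayed between 1.2e-16 and 0.0465. In CKO replicates 1, 2 and 3, Coa3 stood at 11.5, 9.67 and 8.14 CPM beside lens marker sums of 10930, 66.2 and 799 CPM, and the part of lens tissue in the result was not tested.

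The fall of Coa3 was set against the subunits of the enzyme in the same library. The 11 ubiquitous nuclear-encoded subunits together stood at 1001, 755 and 566 CPM in the control libraries, against 776, 706 and 726 CPM in the CKO libraries. The control libraries spanned the CKO libraries on both sides. Coa3 amounted to 5.57%, 6.53% and 6.09% of that sum in the controls and to 1.48%, 1.37% and 1.12% in the CKO. The mean share was thus 6.07% ± 0.48 in the controls and 1.32% ± 0.18 in CKO retinae (SD, n = 3 per group), a 4.58-fold difference. Relative to the summed subunits, the coefficient of variation of Coa3 over the controls was 7.91%, compared with 23.5% for its CPM. Cox4i1 alone gave 371, 415 and 204 CPM of the sum in control libraries 1 to 3. In CKO libraries 1 to 3 it gave 295, 252 and 268 CPM. The share thus depends heavily on 1 gene, and whether Coa3 follows the subunits from library to library was not tested. Relative to the other assembly and insertion factors, Coa3 amounted to 21.8%, 25.6% and 15.1% in the controls and to 4.86%, 3.98% and 3.45% in the CKO, and the coefficient of variation over the controls was 25.4%.

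**Figure D2:**
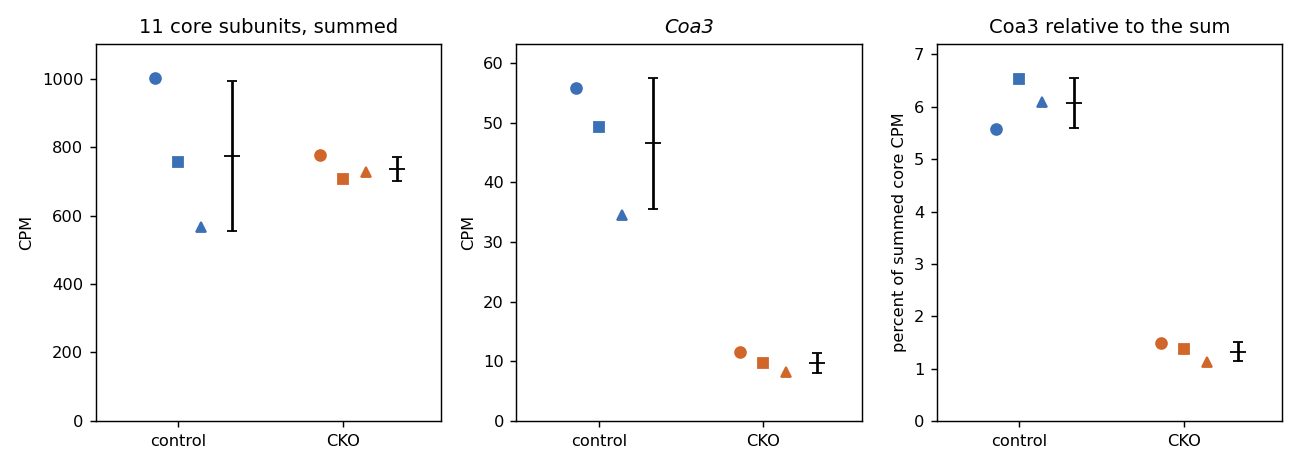
Summed level of the 11 ubiquitous nuclear-encoded subunits (left, CPM, labelled core), level of Coa3 (middle, CPM) and Coa3 as a percentage of that sum (right) in each library; circles, squares and triangles are replicates 1, 2 and 3, and bars are mean ± SD (n = 3). The subunit sum overlaps between genotypes, while Coa3 and its share, at 1.12% to 1.48% against 5.57% to 6.53%, do not.

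The bases before the start of Coa3 are shown because this gene is the member that fell, and because they hold a stretch known as the binding element of THAP11 and ZNF143. The 250 bases before each gene start were searched on both strands for the letters ACTACA, then any 2 bases, then TCCCAG. Sequences are those of the RefSeq promoter table (GRCm38.p6), written 5′ to 3′ on the strand of the gene, and 29 of the 37 members had an entry. The window of Coa3 lies at chr11:101278949-101279198 on the minus strand of that build, with the matched letters in capitals.
Coa3: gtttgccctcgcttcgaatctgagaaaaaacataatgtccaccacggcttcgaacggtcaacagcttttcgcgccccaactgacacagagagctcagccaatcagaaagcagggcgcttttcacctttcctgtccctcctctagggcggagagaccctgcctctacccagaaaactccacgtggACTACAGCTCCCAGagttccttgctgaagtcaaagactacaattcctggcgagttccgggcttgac
The match begins 66 bases before the start of Coa3. Among the 29 members with an entry, 1 held these letters, and 0 of the 25 tested members that were not called did. For comparison, 0.9497% of all 32851 windows of this length held them. By gene, the letters were found in 38 of the 83 genes called lower that had an entry (45.8%), in 2 of 19 called higher (10.5%) and in 252 of 10704 tested genes (2.35%). A match describes letters in a window and is not evidence of binding in these retinae.

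The window is shared with Cntd1, which is transcribed away from Coa3 on the opposite strand and holds the same letters in its own upstream window. Cntd1 is no member and was singled out after its values were seen. It had 81, 68 and 95 reads in the controls and 44, 51 and 44 in the CKO, or 3.18, 2.97 and 3.62 CPM against 1.52, 1.90 and 1.80 CPM. All CKO libraries lay below all controls, and the log2 fold change was -0.90 ± 0.22 (SE, edgeR adjusted p = 0.221), which did not pass. In the GENCODE M21 annotation exons of the genes overlap by 19 bases. The RefSeq gene starts, which set the windows, differ from this and lie on opposite sides of the shared window. Whether reads were counted by strand is not recorded in the labels.

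With the last letter of the search dropped, a choice made after the values were seen, the subunit genes Cox7c and Cox7b matched as well. The stretches below give the match in capitals with 8 bases on each side.
Coa3: ccacgtggACTACAGCTCCCAgagttcct
Cox7c: agagccagACTACATTTCCCAcaatccat
Cox7b: agcttgaaACTACATTTCCCAaagacctt
These lie at chr11:101278994-101279022 on the minus strand, at chr13:86046896-86046924 on the minus strand and at chrX:106015610-106015638 on the plus strand of GRCm38.p6. The 13 letters occurred in 1.35% of all windows, in 3.37% of tested genes and in 63.9% of genes called lower with an entry. They also occurred in 3 of 19 genes called higher (15.8%). Among members with an entry they occurred in 3 of 29 (10.3%), and in 2 of the 25 tested members that were not called (8.0%). Cox7b and Cox7c did not pass the test (adjusted p = 0.958 and 0.893 by edgeR).

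The other factors that insert or hold core subunits had no call. Coa5, a factor needed early in assembly, was the most abundant of them by CPM, at 105, 60.5 and 93.5 CPM in control libraries and 109, 95.4 and 93.4 CPM in CKO libraries. Apart from the low value of control replicate 2, the libraries of both genotypes lay close together. Cox18, which moves part of COX2 across the inner membrane, had the largest positive estimate of all members. It stood at 11.3, 6.72 and 11.5 CPM in control libraries and 12.8, 14.8 and 14.6 CPM in CKO libraries. The groups did not overlap, and the log2 fold change of 0.51 ± 0.23 (SE) did not pass (edgeR adjusted p = 0.790). Cox15 was the other member whose CKO libraries all lay above the controls, so that 2 of 32 members were separated upward and 1, Coa3, downward. Over all genes tested, 5.74% were separated upward and 6.91% downward.

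Cox14, which works with Coa3 on newly made COX1, was at 45.6, 31.4 and 27.0 CPM in control libraries and 32.7, 29.5 and 29.2 CPM in CKO libraries (log2 fold change -0.19 ± 0.21, SE). Its CKO levels lay inside the control range. Surf1, which takes part in giving COX1 its haem, was at 22.0 ± 2.15 and 21.6 ± 1.06 CPM in control and CKO (SD, n = 3). Cox16, which acts on COX2, was at 36.3, 28.6 and 22.1 CPM in control libraries and 27.5, 26.5 and 27.3 CPM in CKO libraries, all within the control range. Cox20, a chaperone of COX2, was at 33.5 ± 12.5 and 38.2 ± 11.5 CPM (SD, n = 3 per group). Among tested members, Cox20 had the highest coefficient of variation over the CKO libraries, at 25.5, 48.0 and 40.9 CPM. Pet100, a factor of later assembly, was at 10.2 ± 2.33 and 8.12 ± 0.52 CPM. In the GENCODE M21 annotation 67.7% of the exonic bases of Pet100 and 76.5% of those of Cox16 overlap exons of another coding gene, so their counts are uncertain.

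The tested genes for copper delivery did not pass either. Cox17 carries copper in the space between the mitochondrial membranes and hands it to Sco1, Sco2 and Cox11. It was at 23.0, 23.2 and 12.2 CPM in control libraries and 15.5, 14.7 and 15.9 CPM in CKO libraries, with a log2 fold change of -0.34 ± 0.25 (SE, edgeR adjusted p = 0.938). Control replicate 3 was below every CKO library and the other controls were above them. Cox19, the most abundant of the copper genes by CPM, was at 45.0, 43.8 and 28.3 CPM in control libraries and 34.7, 35.8 and 32.96 CPM in CKO libraries. Sco1 was at 23.2 ± 3.50 and 25.0 ± 0.83 CPM, and Cox11, which serves the copper site of COX1, at 18.9 ± 2.06 and 19.1 ± 0.48 CPM. Exons of Tom1l1 on the opposite strand overlap 48.3% of the exonic bases of Cox11 in GENCODE M21, so the count of Cox11 is uncertain. Coa6, which helps to load the copper site of COX2, was at 8.99 ± 4.17 and 9.99 ± 1.38 CPM (SD, n = 3 per group).

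Sco2, the paralogue of Sco1, was listed at 0 reads in all 6 libraries. A count of 0 among 154688868 reads allows a level of up to 0.0194 CPM, by the limit of 3 counts and for counting error only. In GENCODE M21, 91.8% of the exonic bases of Sco2 overlap exons of Tymp on the same strand or Ncaph2 on the opposite strand. The labels do not record how reads in overlapping genes were counted, and the 0 cannot be read as absence of the transcript. Ncaph2 itself had between 2613 and 5726 reads per library and Tymp between 27 and 50.

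Haem A synthesis has a pair of dedicated enzymes. Cox10 makes haem O from haem B and Cox15 turns haem O into haem A. Cox15 was at 53.9, 37.3 and 55.1 CPM in control libraries and 58.1, 57.9 and 57.7 CPM in CKO libraries, with a log2 fold change of 0.25 ± 0.18 (SE, edgeR adjusted p = 0.933). The CKO libraries were nearly equal, with a coefficient of variation of 0.366%, and all lay above the controls. Cox10 was at 25.0 ± 3.40 and 23.9 ± 1.41 CPM (SD, n = 3 per group).

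None of the 11 ubiquitous nuclear-encoded subunits passed, and for all 11 the CKO libraries lay inside the range of the controls. Their median log2 fold change was 0.06, with 5 below 0 and 6 above. Over all genes tested, 52.6% had all CKO libraries inside the control range. The coefficient of variation of all 11 was smaller in the CKO, so lying inside the wide control range does not show unchanged levels. Cox4i1, the largest nuclear-encoded subunit, was at 371, 415 and 204 CPM in control libraries and 295, 252 and 268 CPM in CKO libraries (log2 fold change -0.28 ± 0.25, SE, edgeR adjusted p = 0.940). Cox7c, among the smallest subunits, had the lowest estimate of the group. It was at 30.9, 6.81 and 15.6 CPM in control libraries and 11.5, 8.81 and 8.63 CPM in CKO libraries. Its controls spread so widely (coefficient of variation 68.5%) that control replicate 2 lay below all CKO libraries. The log2 fold change of -0.88 ± 0.47 (SE) did not pass (edgeR adjusted p = 0.893), and leaving out single libraries moved it between -1.25 and -0.22.

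Levels were compared between genes per kilobase of mRNA, using the GENCODE transcript with the longest coding sequence. Cox4i1 was the highest, at 431 ± 145 CPM per kb in the controls and 355 ± 28.9 CPM per kb in the CKO (SD, n = 3 per group). Cox6a1 followed at 170 ± 43.3 and 176 ± 4.53 CPM per kb. Cox6b1, Cox8a, Cox5a, Ndufa4 and Cox7a2 had control levels of 103 to 66.1 CPM per kb, and neighbours in that order differed by less than their SD. Cox7c, Cox6c and Cox7b had 32.9, 32.4 and 26.2 CPM per kb. Cox5b had the lowest level of the ubiquitous nuclear-encoded subunits at 15.3 ± 5.31 CPM per kb. The subunits form a complex with the same number of each, whereas the transcript levels ranged from 15.3 to 431 CPM per kb. Several of these genes have processed pseudogene copies, and reads that fit more than 1 place can be lost in counting, so the low values are uncertain. Coa3, at 52.5 ± 12.3 CPM per kb in the controls, stood among the assembly factors below Cox20 (71.2 ± 26.5) and above Cox14 (47.9 ± 13.4). That order depends on the length used. Per kb of coding sequence the control levels were 144 for Coa3, 95.5 for Cox20 and 203 for Cox14, the reverse order. In the CKO, at 11.02 ± 1.90 CPM per kb of mRNA, Coa3 stood beside Cox18 (10.8 ± 0.83), the next to lowest of that group.

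**Figure D3:**
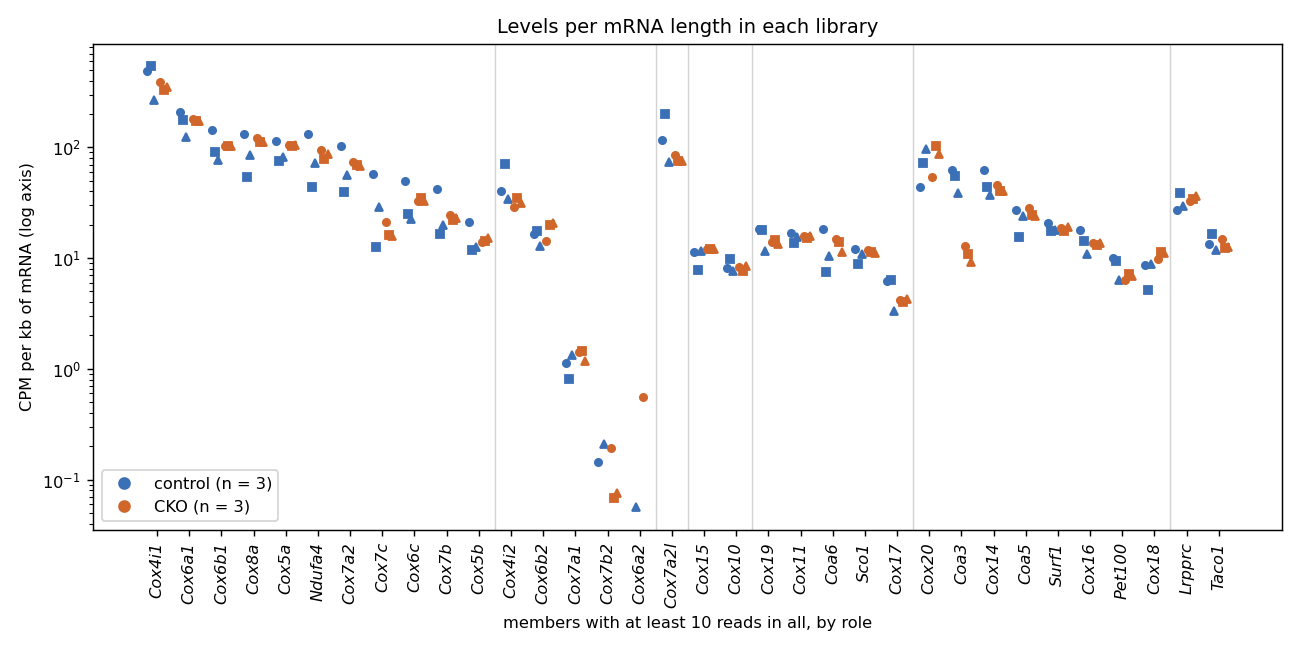
Level per kilobase of mRNA (y axis, log scale) of each member with at least 10 reads in all, by role from left to right (ubiquitous nuclear-encoded subunits, tissue-restricted isoforms, Cox7a2l, haem A, copper, assembly and insertion, expression of mitochondrial subunits); libraries at 0 are not drawn. Cox4i1 is highest, and Coa3 is the member whose CKO points all lie well below its controls.

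Isoforms typical of other tissues were present at low levels, with the exception of Cox4i2 and Cox6b2. Cox4i2, the isoform of Cox4i1 known from lung and induced by low oxygen, was at 29.4, 52.2 and 25.0 CPM in control libraries and 21.4, 25.5 and 23.0 CPM in CKO libraries. Control replicate 2 stood above the other 5 libraries, and the log2 fold change of -0.61 ± 0.27 (SE) did not pass (edgeR adjusted p = 0.786). Corrected for mRNA length, it made up 10.2% ± 2.21 of the sum of both COX4 isoforms in the controls and 8.27% ± 1.28 in the CKO (SD, n = 3 per group). Cox6b2, known from testis, was at 6.12 ± 0.93 and 7.15 ± 1.38 CPM. It made up 13.6% ± 2.92 and 15.0% ± 2.50 of the Cox6b1 and Cox6b2 sum, by the same correction.

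The isoforms of heart and skeletal muscle were near the limit of detection. Cox7a1 had 14, 9 and 17 reads in the controls and 20, 19 and 14 in the CKO, or 1.81% ± 0.64 and 1.89% ± 0.17 of the Cox7a1 and Cox7a2 sum per length. Cox6a2 had 0, 0 and 1 reads in the controls and 11, 0 and 0 reads in the CKO. The 11 reads all came from CKO replicate 1, which also held the highest lens marker sum, while its striated muscle markers summed to 8.52 CPM, inside the control range. Single muscle markers went both ways in that library. Tnni1, Actc1 and Tnni2 were highest of all libraries there, with 25, 14 and 7 reads, whereas Tnnt3, Ckm and Myog had 0 reads. The part of lens or muscle tissue in the Cox6a2 reads was not tested. Cox8b had 1 read in 6 libraries. Of the testis isoforms, Cox7b2 had between 0 and 3 reads per library, and Cox8c was at 0 in all 6, which allows up to 0.0194 CPM.

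Cox7a2l encodes a protein related to Cox7a2 that joins complex IV to complex III in supercomplexes. It was at 132, 224 and 83.6 CPM in control libraries and 96.0, 85.8 and 84.3 CPM in CKO libraries. The CKO libraries lay inside the control range, near control replicate 3. The log2 fold change of -0.72 ± 0.32 (SE) did not pass (edgeR adjusted p = 0.779), and without control replicate 2 it was -0.27.

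Factors that act on the expression of the core subunits from mitochondrial DNA were represented by Lrpprc and Taco1. Lrpprc, which stabilises mitochondrial mRNAs, was at 119, 169 and 131 CPM in control libraries and 143, 150 and 161 CPM in CKO libraries. Taco1, a translational activator of COX1, was at 19.1 ± 3.29 and 18.4 ± 1.86 CPM (SD, n = 3 per group). The CKO levels of both lay inside the range of the controls.

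**Figure D4:**
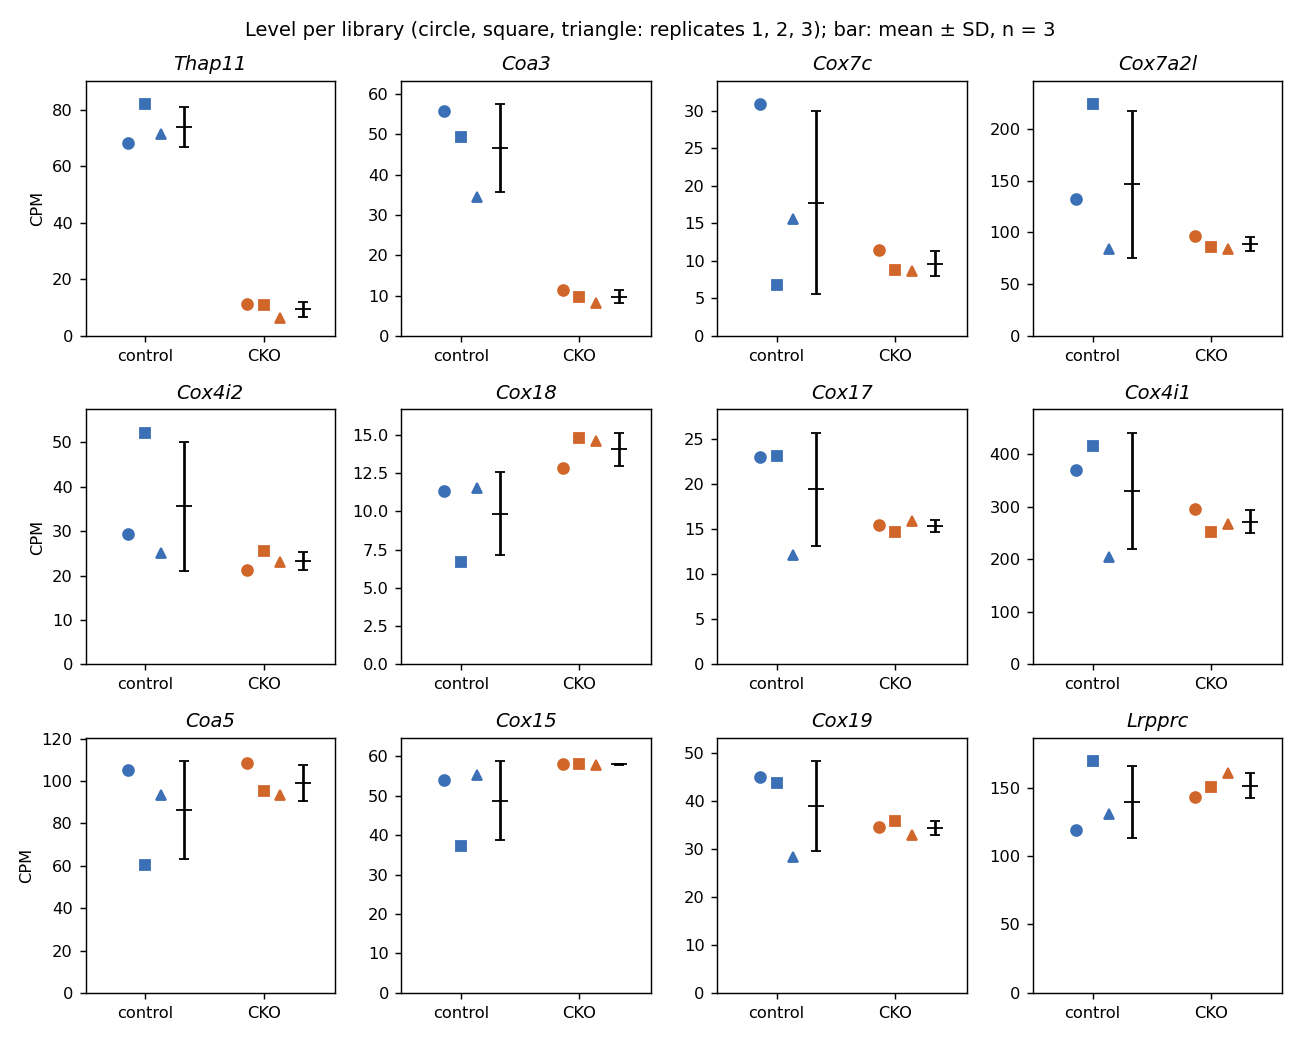
Level in CPM (y axes, each from 0) of Thap11 and of 11 members in each control and CKO library (x axis); symbols mark replicates 1, 2 and 3 and bars mean ± SD (n = 3). Thap11 and Coa3 are separated downward, Cox18 and Cox15 upward by narrow gaps, and the other panels overlap.

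The controls varied more than the CKO libraries in nearly every member. The coefficient of variation was smaller in the CKO for 31 of 32 tested members, against 87.6% of all genes tested. The median SD of log2 CPM over the members was 0.41 in the controls and 0.08 in the CKO, beside 0.33 and 0.10 over all genes. Without control replicate 2 the control SD was 0.47 for the members and 0.19 for all genes. Control replicate 1 was the highest of the 6 libraries for 19 of the 32 members, and control replicates 2 and 3 were the lowest for 14 and 11. For 21 members all CKO libraries lay within the span of the controls (65.6%, against 52.6% of all genes tested).

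Genes that serve complex IV but are no members were examined in lists written from textbook knowledge. Of 49 tested genes in these lists, 0 were called in either direction by edgeR, and 0 by DESeq2 or limma-voom, while 4 had an unadjusted p under 0.05 by edgeR, 3 of them lower and 1 higher. Over all genes tested, 0.897% were called and 6.58% had an unadjusted p under 0.05. Among 10 tested genes for cytochrome c and haem synthesis the median log2 fold change was -0.02. Alad, an early enzyme of haem synthesis, was at 52.9 ± 20.8 and 49.6 ± 2.80 CPM. Urod, a later enzyme, was at 48.7, 64.1 and 38.6 CPM in control libraries and 35.6, 33.8 and 38.2 CPM in CKO libraries, with all CKO libraries below the controls (log2 fold change -0.49 ± 0.20, SE, edgeR adjusted p = 0.6995).

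The 9 tested copper and redox carriers had a median of -0.08. Slc25a3, which brings phosphate and copper into mitochondria, was at 316 ± 55.9 and 300.2 ± 6.70 CPM. Chchd4, which imports and oxidises proteins of the space between the membranes, among them copper chaperones, was at 27.3, 18.7 and 19.9 CPM in control libraries and 29.9, 27.7 and 30.8 CPM in CKO libraries. Its groups did not overlap, and the log2 fold change of 0.42 ± 0.18 (SE) did not pass (edgeR adjusted p = 0.744).

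Further assembly genes (17 tested) had a median of 0.08. Oxa1l, the insertase of the inner membrane, was at 77.6 ± 6.11 and 83.7 ± 2.48 CPM, with all CKO libraries above the controls. Timm21, which links protein import to early assembly of complex IV, was at 25.1, 13.6 and 22.5 CPM in control libraries and 10.8, 15.3 and 12.7 CPM in CKO libraries, with a log2 fold change of -0.66 ± 0.26 (SE, edgeR adjusted p = 0.671). Control replicate 2 lay within the CKO range and the other controls above it.

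Among 13 tested nuclear regulators of respiratory genes, the median log2 fold change was -0.10 and 11 were below 0, or 84.6%, beside 55.0% of all genes tested. Hcfc1, a cofactor that binds THAP11, was at 353, 406 and 492 CPM in control libraries and 343, 343 and 337 CPM in CKO libraries (log2 fold change -0.29 ± 0.15, SE, edgeR adjusted p = 0.875). Pprc1, a coactivator of the PGC-1 family, was at 64.0, 135 and 82.3 CPM in control libraries and 52.6, 54.0 and 56.8 CPM in CKO libraries. For Hcfc1 and Pprc1 all CKO libraries lay below the controls, and the log2 fold change of Pprc1, -0.78 ± 0.26 (SE), did not pass (edgeR adjusted p = 0.505). Separated downward were 1 haem or cytochrome c gene, 1 carrier, 0 further assembly genes and 2 regulators. The counts separated upward were 0, 1, 2 and 0 in that order. Over all genes tested, 6.91% were separated downward and 5.74% upward.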

How the data were processed

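Whole-number read counts per gene symbol were deposited by the authors. The submitters' processing notes name build mm9, HTSeq 0.5.4p3, DESeq 2.13 and BWA 0.7.6a-r433; the role of each, the annotation and the strand setting are not given there. The 3 merge-conflict lines, 1 blank line and 1 repeated gene line were dropped. Groups came from the sample titles. Counts were filtered with filterByExpr (minimum count 10), scaled by TMM and tested with edgeR 4.0.16 (R 4.3.3; quasi-likelihood F test, genotype only) over 14609 genes, with Benjamini-Hochberg adjustment and a threshold of 0.05; the script was tested on simulated data. No libraries agreed within sampling noise (lowest chi-square per degree of freedom 5.77). Alternatives used DESeq2 1.42.0, limma 3.58.1, other scalings, filters and thresholds, the replicate number as a block, and each library left out. Lengths and overlaps came from GENCODE M21 and promoters from RefSeq, both on GRCm38, whereas the counts are on mm9. For levels between genes, mRNA length was used in place of the planned coding length because transcripts include untranslated parts. The SE was derived from the size of the log2 fold change and its F statistic. Values per library were given for called members, for the 6 members of largest change, for the most abundant member of each role and for tissue-restricted isoforms with reads, and from each further list for the most abundant gene and that of largest change. Members and lists were chosen with earlier results of these data known. The name of the Cre driver and 1 marker gene are not reported here.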

Additional observations from a re-analysis of the deposited data

How the results depend on the processing

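The call of Coa3 as the single lower member held in 13 of 14 alternatives, the exception being the fit without CKO replicate 3, and 0 members or further listed genes were called higher in any. Leaving out single libraries gave 0 to 1 lower members and a Coa3 estimate of -2.40 to -2.10; the cause of the loss was not tested. Over all genes, edgeR called 103 lower and 28 higher, DESeq2's Wald test 207 and 117, and the stricter adjusted p of 0.01 left 31 and 8. Leaving out single libraries gave 10 to 147 lower and 6 to 72 higher. The median of the members lay between -0.10 and 0.16 in all alternatives. Members near 0 changed sign without being called. With library totals as scaling, the log2 estimates of Cox10, Surf1, Taco1 and Cox6b1 became 0.0125, 0.0427, 0.0239 and 0.0654. Cox6b1 (-0.00286) was 0.0150 with DESeq2 size factors, 0.0150 with DESeq2's test, 0.0475 with limma-voom and 0.0477 with the replicate block. Leaving out single libraries took Coa6 from -0.0875 to 0.58, Cox10 from -0.11 to 0.0606, Cox11 from -0.0514 to 0.0929, Cox14 from -0.31 to 0.0615, Cox16 from -0.23 to 0.10, Cox20 from -0.0650 to 0.51, Cox5b from -0.22 to 0.25, Cox6a1 from -0.10 to 0.23, Cox6b1 from -0.15 to 0.30, Cox6c from -0.12 to 0.50, Cox7a2 from -0.16 to 0.55, Cox7b from -0.41 to 0.34, Ndufa4 from -0.22 to 0.57, Surf1 from -0.0616 to 0.0562 and Taco1 from -0.14 to 0.10. None of these passed in any alternative, with the cause of the sign changes not tested.

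The replicate numbers do not pair the libraries by any label. Deviations of same-numbered libraries correlated at 0.34, 0.11 and -0.00775, and replicates 2 and 3 of the controls correlated more with another number. With the replicate block, 113 genes were lower and 40 higher, and Coa3 stayed called (log2 fold change -2.24, edgeR adjusted p = 0.000677). Per kb of coding sequence, the measure first planned and replaced by mRNA length, Cox4i1 was at 651 and Coa5 at 389 CPM per kb in the controls. Coa5 had 22.3 per kb of mRNA. Counts limit Cox7a1, Cox6a2, Cox7b2, Cox8b, Cox8c and Sco2, and the spread of 3 controls limits the intervals of the others.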

Other observations

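Levels of members with short transcripts were set against the mean of the 6 libraries, with no test. Among 17 tested members whose mRNA is under 1 kb, the median deviation from the 6-library mean was 0.49 on the log2 scale in control replicate 1, -0.30 in control replicate 2 and -0.22 in control replicate 3. Of the 17, 14 lay above their mean in control replicate 1, 12 lay below it in control replicate 2 and 13 lay below it in control replicate 3, so that members went both ways in each. In the CKO libraries the median was between 0.02 and 0.03. Over all 707 tested genes under 1 kb the corresponding medians were 0.30, 0.00844 and -0.23 in the controls, and the 15 members of 1 kb or more had 0.17, 0.05 and -0.14. Ndufa4 at 80.6, 26.9 and 44.4 CPM and Cox7a2 at 67.6, 26.1 and 37.0 CPM in control replicates 1 to 3 are examples. Coa3, with an mRNA of 886 bases, was at 55.8, 49.3 and 34.5 CPM in those libraries.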
